A study of Homo sapiens with 6 samples.

Results

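Chaperones of the endoplasmic reticulum were followed in RNA sequencing of the C4-2B-ENZR line, human prostate cancer cells resistant to the antiandrogen enzalutamide. The genes were 10 listed by symbol: HSPA5, HSP90B1, HYOU1, CALR, CANX, PDIA3, PDIA4, PDIA6, CRELD2 and MANF. All 10 were found among the 57820 genes of the count files through their Ensembl identifiers. The list was chosen by the fold changes and calls of these same libraries, so those values are given as a description and test nothing. One group of 3 libraries came from cells given a negative control siRNA and the other group of 3 from cells given an siRNA against RUVBL1, an AAA+ ATPase of protein assembly and chromatin complexes. Both groups share the cell line, its drug resistance and the transfection. The time after transfection, the siRNA sequences and any enzalutamide in the medium were not stated in the sources used here. Replicates are numbered 1 to 3 in the labels, which do not describe them as separate cultures, so the p-values below measure the spread between libraries, which may be technical.

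The endoplasmic reticulum folds proteins that are bound for membranes and secretion. HSPA5 (BiP) is its HSP70 chaperone and HSP90B1 (GRP94) its HSP90, the lectins calnexin and calreticulin hold glycoproteins while they fold, and protein disulfide isomerases join their cysteines. When unfolded proteins build up, the sensors ATF6, IRE1 (gene ERN1) and PERK (gene EIF2AK3) start the unfolded protein response, in which ATF6 and XBP1 raise chaperone genes through promoter elements and PERK raises ATF4 and CHOP (gene DDIT3). Prostate epithelial cells secrete heavily and so rely on this machinery.

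Totals ran from 18985542 to 36054489 estimated counts per library, and no listed gene had a count of 0 in any library. RUVBL1 stood between 4654 and 4758 normalized counts in the control libraries and between 2618 and 2725 after RUVBL1 siRNA (57.1% of the control mean). Replicate 1 of each group stood apart from the others: the mean chi-square per gene between libraries of a group was between 24.7 and 25.6 for pairs with replicate 1, and 1.69 and 1.75 for replicates 2 and 3. The line expressed its prostate and epithelial markers, which summed to between 4303 and 4435 CPM (counts scaled to library size) in the control libraries and between 3869 and 4030 after RUVBL1 siRNA, with KLK3 among them. Of 12 stromal, endothelial and immune markers, 5 were at 0 in every library, among them DCN, LUM, COL1A2 and CD3E. Others were present. In the controls CD68 had 275, 439 and 358 estimated counts, ACTA2 223, 395 and 303, and COL1A1 201, 324 and 268. These were above the prostate marker SLC45A3 (98, 176 and 120). ACTA2 and CD68 fell to 39.8% and 51.4% of their control means, while COL1A1, VWF and PDGFRB were not called. The 12 together gave between 33.0 and 37.0 CPM in the controls and between 24.4 and 26.1 after RUVBL1 siRNA, and the part of these shifts in the results was not tested. In bulk RNA, fewer cells of one kind and less RNA per cell cannot be told apart.

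The promoters are shown first because most of those with an entry hold a rare element of stress-induced genes. The endoplasmic reticulum stress element (ERSE: CCAAT, 9 bases of any kind, CCACG) was searched on both strands of the 250 bases before each RefSeq start (GRCh38.p14). Only exact matches were counted, here and for the other elements, so copies with a changed base were missed. It lay before 6 of the 9 listed genes with a promoter entry, and before 25 of all 27305 genes with one (0.0916%). The element is known from stress-induced chaperone genes, the kind of gene listed here. These counts are therefore a description and test nothing. The entry of PDIA3 was missing. The matches are written 5′ to 3′ on the strand that carries them, with the CCAAT and CCACG ends in capitals.
HSPA5 (chr9:125241391-125241409, minus strand): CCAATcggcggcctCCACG
HSP90B1, farther match (chr12:103930216-103930234, plus strand): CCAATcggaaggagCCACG
HSP90B1, nearer match (chr12:103930321-103930339, minus strand): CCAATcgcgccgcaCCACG
CALR (chr19:12938384-12938402, minus strand): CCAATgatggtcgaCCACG
CANX (chr5:179698778-179698796, plus strand): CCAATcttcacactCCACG
PDIA6 (chr2:10812853-10812871, minus strand): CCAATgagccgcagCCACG
CRELD2 (chr22:49918554-49918572, minus strand): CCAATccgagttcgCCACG
The HSPA5 match ended 48 bases before the start and that of CRELD2 62 bases before it. The CANX match fell in 2 overlapping windows of alternative starts. HYOU1 had no ERSE in its window. It held the related element ERSE-II (ATTGG, 1 base of any kind, CCACG) at 2 places, and that element was found before 18 of the 27305 genes (0.0659%). MANF and PDIA4 held no exact match to either element in these windows. Each had 3 copies of CCAAT on the 2 strands of at least 1 window, a motif found before 37.0% of genes. A match is a string of letters, and no binding was measured.

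The 250 bases before HSPA5 and before HYOU1 are printed to show both arrangements, read along the gene, with ERSE ends or ERSE-II in capitals.
HSPA5 (chr9:125241344-125241593, minus strand): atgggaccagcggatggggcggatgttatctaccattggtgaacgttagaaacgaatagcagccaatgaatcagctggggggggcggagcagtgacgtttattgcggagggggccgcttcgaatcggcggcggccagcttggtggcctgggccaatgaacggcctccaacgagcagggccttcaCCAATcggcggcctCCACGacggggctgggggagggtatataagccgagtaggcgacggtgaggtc
HYOU1 (chr11:119057206-119057455, minus strand): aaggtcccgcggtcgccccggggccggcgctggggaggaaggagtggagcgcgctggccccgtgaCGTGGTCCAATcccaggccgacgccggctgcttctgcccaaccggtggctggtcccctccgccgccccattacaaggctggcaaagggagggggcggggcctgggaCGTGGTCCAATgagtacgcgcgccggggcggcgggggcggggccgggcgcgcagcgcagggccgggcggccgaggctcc
In HYOU1 both matches lay on the strand opposite to the gene, at 185 to 175 and at 79 to 69 bases before the start. They therefore read CGTGG first and CCAAT last along the gene. HSPA5 had 4 copies of CCAAT on the 2 strands of its window, of which 1 belonged to the exact ERSE match. Whether the other copies belong to an element with a changed base was not searched.

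After RUVBL1 siRNA the listed genes fell without exception in the edgeR fit, to between 70.3% and 92.5% of their control means. All 10 had an adjusted p under 0.05 and a lower value, where 23.1% of the 16006 genes tested were called lower and 19.1% higher. None of the 10 overlapped between the groups, while 27.4% of tested genes were lower without overlap. Because the choice of the genes already used this contrast, nothing is read from these counts. The median log2 fold change of the 10 was -0.30, and that of all tested genes 0.01. Abundant genes were called more often: of the 2378 tested genes with a mean at least as high as that of CRELD2, the lowest of the 10, 51.7% were called lower and 23.5% higher, a comparison chosen after seeing the data. Together the 10 genes took 0.745%, 0.733% and 0.731% of all counts in the control libraries and 0.677%, 0.665% and 0.663% after RUVBL1 siRNA.

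**Figure D1:**
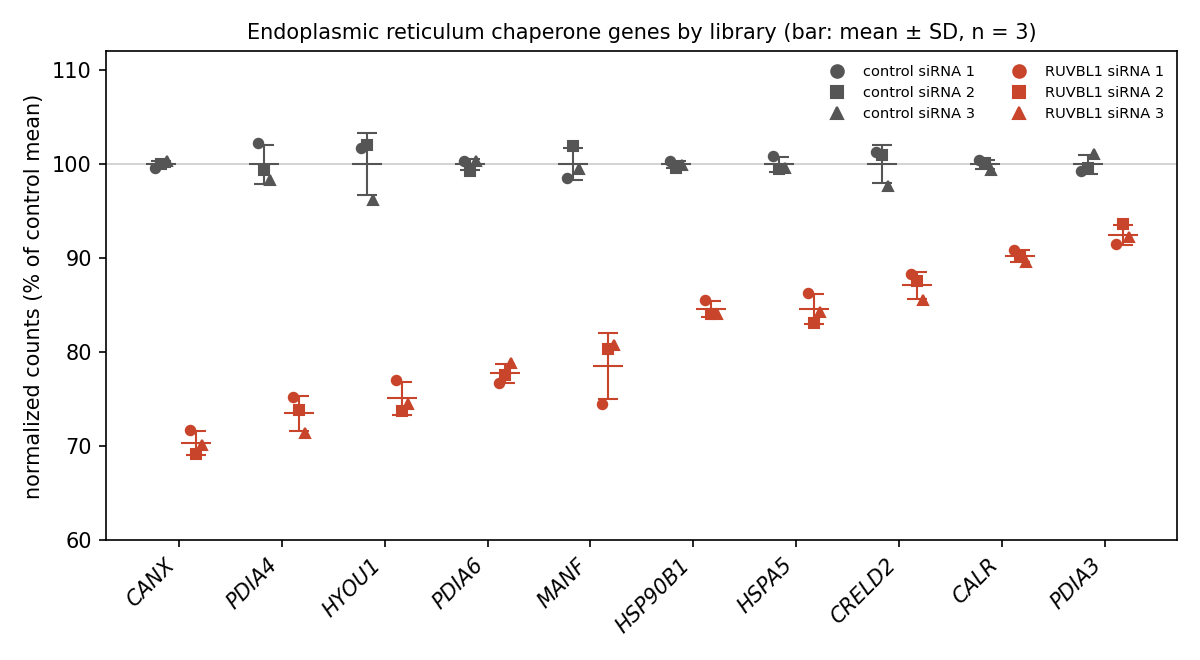
Normalized counts of each of the 10 chaperone genes as a percent of its control mean (vertical axis, not starting at 0), for 3 control siRNA libraries (grey) and 3 RUVBL1 siRNA libraries (red), with symbols for replicate numbers and bars for the mean ± SD. Every red point lies below every grey point of its gene, and the means run from 70.3% for CANX to 92.5% for PDIA3.

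Within the HSP70 system, HSPA5 (ENSG00000044574.7), the master chaperone that also holds the stress sensors inactive, had 31582, 31137 and 31179.8 normalized counts in the control libraries and 27028, 26031 and 26373 after RUVBL1 siRNA. The lowest control library was above the highest treated one, and the level fell to 84.6% ± 1.62 of the control mean (SD, n = 3; log2 fold change -0.24, SE 0.0206). HYOU1 (ENSG00000149428.14), a large HSP70-like protein that serves as a nucleotide exchange factor of HSPA5, had 5168, 5186 and 4889 normalized counts in the controls and 3915, 3747 and 3783 after RUVBL1 siRNA. Again all controls were above all treated libraries, and it fell to 75.1% ± 1.74 (log2 fold change -0.41, SE 0.0277). HSP90B1 (ENSG00000166598.8), the HSP90 of this compartment and a folding factor of integrins and Toll-like receptors, had 32904, 32653 and 32761 in the controls and 28035, 27569 and 27565 after RUVBL1 siRNA. Its level of 84.6% ± 0.825 and log2 fold change of -0.24 (SE 0.0187) lay within the error of those of HSPA5. Differences between genes were not tested.

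The paired lectins changed by unlike amounts. CANX (ENSG00000127022.10) encodes calnexin, which is anchored in the membrane. It had 17632, 17704 and 17748 normalized counts in the controls and 12687, 12238 and 12409.7 after RUVBL1 siRNA, which is 70.3% ± 1.28 of the control mean (log2 fold change -0.51, SE 0.0191) and the largest fall of the 10. CALR (ENSG00000179218.9) encodes calreticulin, the soluble counterpart, and was the most abundant of the 10. Its counts of 63089, 62926 and 62481 in the controls stood against 57074, 56698 and 56286 after RUVBL1 siRNA, a fall to 90.2% ± 0.628 (log2 fold change -0.15, SE 0.0175). The groups were clear of each other for both lectins.

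Among the disulfide isomerases, PDIA3 (ENSG00000167004.8, ERp57), which works with both lectins, changed least of the 10. Its normalized counts were 23739, 23799 and 24173 in the controls and 21889, 22377 and 22047 after RUVBL1 siRNA, or 92.5% ± 1.04 (log2 fold change -0.11, SE 0.0193). PDIA4 (ENSG00000155660.6, ERp72) had 11165, 10852 and 10729.8 in the controls and 8209.6, 8060.4 and 7799 after RUVBL1 siRNA. It fell to 73.5% ± 1.91 (log2 fold change -0.44, SE 0.0227), next after CANX. PDIA6 (ENSG00000143870.8, P5), an isomerase that binds HSPA5, had 8900.1, 8804 and 8894 in the controls and 6806, 6882 and 6993 after RUVBL1 siRNA. The level was 77.8% ± 1.06 (log2 fold change -0.36, SE 0.0176), so the 3 isomerases spread over most of the range of the 10 genes.

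CRELD2 and MANF encode small secretory-pathway proteins that are induced by endoplasmic reticulum stress. CRELD2 (ENSG00000184164.10) had 2409, 2402 and 2322 normalized counts in the controls and 2100.5, 2082 and 2034 after RUVBL1 siRNA, a fall to 87.1% ± 1.44 (log2 fold change -0.20, SE 0.0303). MANF (ENSG00000145050.11), a cofactor of HSPA5 that can be secreted as a survival factor, had 5097, 5269.9 and 5148 in the controls and 3851, 4154 and 4176 after RUVBL1 siRNA. At 78.5% ± 3.52 (log2 fold change -0.35, SE 0.0305) it varied most between the treated libraries, with replicate 1 the lowest. Among related genes, CRELD1 was at 90.6% of its control mean (edgeR adjusted p = 0.0127), HSPA13 at 87.3% (edgeR adjusted p = 0.000657), and CDNF, the paralog of MANF, at 77.8% of only 56.8 normalized counts (edgeR adjusted p = 0.150). With library totals alone neither CRELD1 (edgeR adjusted p = 0.436) nor HSPA13 (edgeR adjusted p = 0.0518) was called.

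The sizes of these falls depended on how libraries were scaled. With library totals alone in place of TMM factors (a scaling that sets the bulk of genes equal), the median log2 fold change of all genes moved up by 0.0992, and the split of all calls went from 3060 higher and 3695 lower to 4981 higher and 2297 lower. The median of the 10 genes was then -0.20 and 8 of them were called lower, beside 14.4% of all genes lower and 31.1% higher. CALR (log2 fold change -0.05, edgeR adjusted p = 0.0630) and PDIA3 (-0.01, edgeR adjusted p = 0.637) were not called. CRELD2 kept its call with a log2 fold change of -0.10 (edgeR adjusted p = 0.0252). In replicates 2 and 3 alone, without the libraries that stood apart, all 10 were called lower with a median of -0.29, beside 24.2% of all genes lower and 20.9% higher. Over the 14 alternatives the log2 fold change of HSPA5 lay between -0.26 and -0.14, that of CANX between -0.53 and -0.41 and that of MANF between -0.37 and -0.25, with library totals alone at the upper end of each. The coefficient of variation between libraries was between 0.331% (CANX) and 3.28% (HYOU1) in the controls and between 0.696% (CALR) and 4.48% (MANF) after RUVBL1 siRNA.

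**Figure D2:**
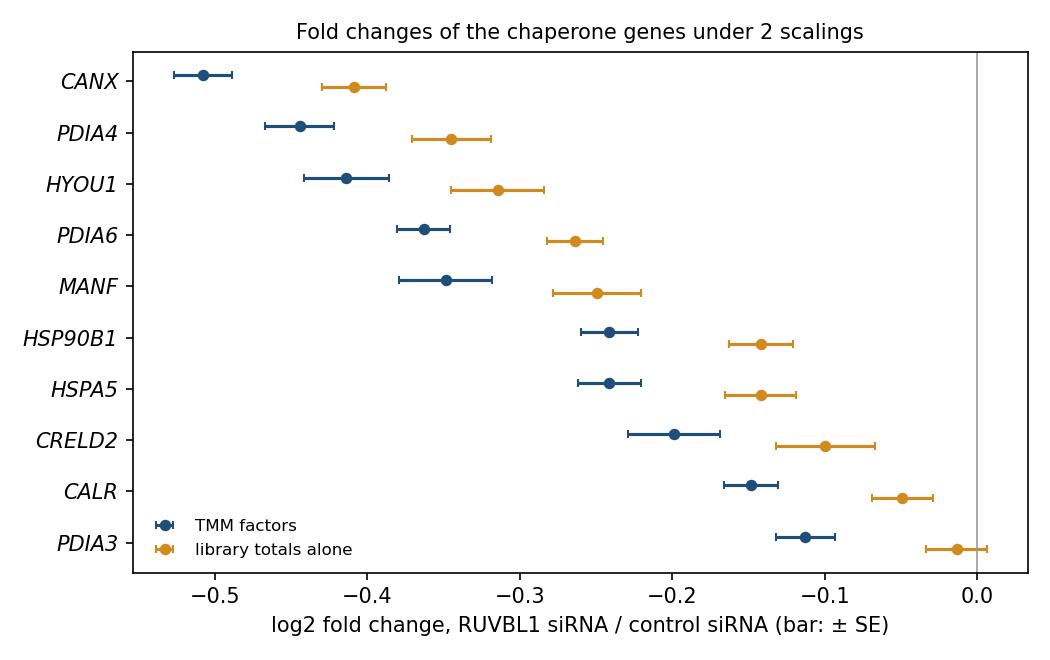
Log2 fold change of RUVBL1 siRNA over control siRNA (horizontal axis, bars ± SE of the edgeR fit) for the 10 chaperone genes with TMM factors (blue) and with library totals alone (orange). The order of the genes is much the same in both, from CANX at -0.51 to PDIA3 at -0.11 with TMM factors, and the PDIA3 bar reaches 0 with library totals alone.

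Levels were also set on a scale per length, computed as TPM over the genes with a known length, which carries no TMM factor. With the median length of a gene's GENCODE 29 transcripts, CALR was highest in the controls at 2696 ± 46.1 (SD, n = 3), then HSP90B1 at 1508 ± 24.6 and PDIA3 at 1094 ± 10.2. CRELD2 was lowest at 64.8 ± 1.96. With the longest transcript, CALR was at 2478 ± 40.3, HSP90B1 at 811 ± 12.4 and CRELD2 at 68.1 ± 2.02, so the ends of the order held. HSPA5 was sixth at 268 ± 5.55 by the median length and the third at 601 ± 11.8 by the longest. Its length was 3908 bases by both measures, while that of CALR was 781 or 1903 bases. No neighbours in either order overlapped between control libraries. The order was the same after RUVBL1 siRNA by both lengths, though by the longest transcript PDIA4 (219.7 to 234) overlapped MANF (212 to 226) there, and MANF overlapped PDIA6 (210.3 to 213). PDIA3 stood at 481 ± 3.99 TPM in the controls and 487.5 ± 4.25 after RUVBL1 siRNA by the longest transcript, and at 1094 ± 10.2 and 1083 ± 8.92 by the median length, so its direction depended on the scale. Reads shared with the processed pseudogenes of HSPA5, HSP90B1 and PDIA3 could not be told apart from those of the genes.

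Other genes of folding and of its stress response were read from lists made by role, 148 tested genes besides the 10. They included 19 sensors and factors of the unfolded protein response, of which 8 rose, and 3 paralogs of the listed genes. The lists were drawn up with earlier results of these libraries known. Of the 148, 105 fell and 16 rose (70.9% and 10.8%), where 23.1% and 19.1% of all genes did and 51.7% and 23.5% of the abundant genes described above, and their median log2 fold change was -0.26. With library totals alone, 85 fell and 28 rose, beside 14.4% and 31.1% of all genes. Of 11 cochaperones of HSPA5, 9 fell and 1 rose, with a median of -0.32. SIL1, the second exchange factor of HSPA5, fell to 66.6% of its control mean (log2 fold change -0.59, edgeR adjusted p = 3.37e-08). The J-domain genes SEC63, DNAJC3 and DNAJB11 fell to 76.6%, 76.2% and 80.4%. The gene that rose was SDF2L1, a stress-induced partner of DNAJB11, to 115% (edgeR adjusted p = 0.00289). It is named after its value was seen, as are all single genes given below as the ones that rose.

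Disulfide and proline chemistry followed. Of 20 other isomerases and oxidases, 15 fell and 1 rose (median -0.27), while 13 fell and 3 rose with library totals alone. Beside this list and the next, 23.1% of all tested genes fell and 19.1% rose, or 14.4% and 31.1% with library totals alone. Among the abundant genes described above 51.7% fell and 23.5% rose. P4HB, the founding disulfide isomerase, had 41014, 39496 and 39217 normalized counts in the controls and 30791, 29359 and 29302 after RUVBL1 siRNA, or 74.7% (edgeR adjusted p = 6.76e-08). This lay beside PDIA4 and PDIA6 and apart from PDIA3. TMX2, a membrane thioredoxin-like gene, fell to 68.2%, the sulfhydryl oxidase gene QSOX1 to 74.1% and TXNDC5 to 74.3%. GPX8, a peroxidase gene of the compartment, rose to 135% (edgeR adjusted p = 6.05e-05). Of 9 prolyl isomerase and collagen chaperone genes, 6 fell and 3 were not called (median -0.29), while 5 fell and 2 rose with library totals alone. PPIB, the abundant cyclophilin, fell to 86.8%, PPIC to 78.5%, FKBP14 to 78.1% and the collagen chaperone gene SERPINH1 to 76.1%.

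Genes that make, trim and read N-glycans, the handles of the calnexin cycle, were mostly lower too. Of 11 oligosaccharyltransferase subunits 7 fell and 4 were not called (median -0.31), while 7 fell and 2 rose with library totals alone. The shares of all tested genes were again 23.1% lower and 19.1% higher, and those of the abundant genes 51.7% and 23.5%. With library totals alone they were 14.4% and 31.1% of all tested genes. RPN1 went from 16683, 16636 and 16779 normalized counts to 11847, 11629 and 11447, or 69.7% (edgeR adjusted p = 1.15e-09). The catalytic subunit gene STT3A fell to 69.9%, RPN2 to 72.7% and DDOST to 80.4%. Of 16 glycan processing and lectin genes, 13 fell and 1 rose (median -0.32). GANAB, the glucosidase subunit that trims glycans for calnexin, fell to 71.3% (edgeR adjusted p = 3.63e-09), the mannosidase genes MAN1B1 and EDEM3 to 71.3% and 72.3%, and the cargo lectin gene LMAN2 to 76.7%. CLGN, which encodes calmegin and is a relative of CANX, rose to 121% (edgeR adjusted p = 2.47e-05), opposite in direction to CANX.

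Genes of entry to the compartment and retention in it came next. Of 18 translocon, receptor and signal peptidase genes, 15 fell and 2 rose (median -0.29). Among all tested genes 23.1% fell and 19.1% rose, and among the abundant genes described above 51.7% and 23.5%. TRAM1 fell to 64.6%, the signal recognition particle receptor gene SRPRB to 66.2%, SSR1 to 76.9% and the channel gene SEC61A1 to 77.8%. The other channel subunits, SEC61B and SEC61G, rose to 114% and 109%. The call of SEC61G was lost without control siRNA replicate 1 or 3 or without RUVBL1 siRNA replicate 2 (edgeR adjusted p between 0.0568 and 0.0776). The KDEL receptors return soluble chaperones that leave with cargo. KDELR1 and KDELR2 fell to 82.8% and 83.8% of their control means, and KDELR3 from 808, 803 and 827 normalized counts to 497, 449 and 498, or 59.2% (edgeR adjusted p = 3.58e-07). All 16 tested genes on the list of KDEL receptors and calcium handling fell (median -0.34). With library totals alone 15 of these genes fell, beside 14.4% of all tested genes. They included the calcium-binding protein genes CALU (64.1%) and RCN2 (74.9%), the calcium release channel gene ITPR1 (62.7%) and the calcium pump gene ATP2A2 (77.6%).

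**Figure D3:**
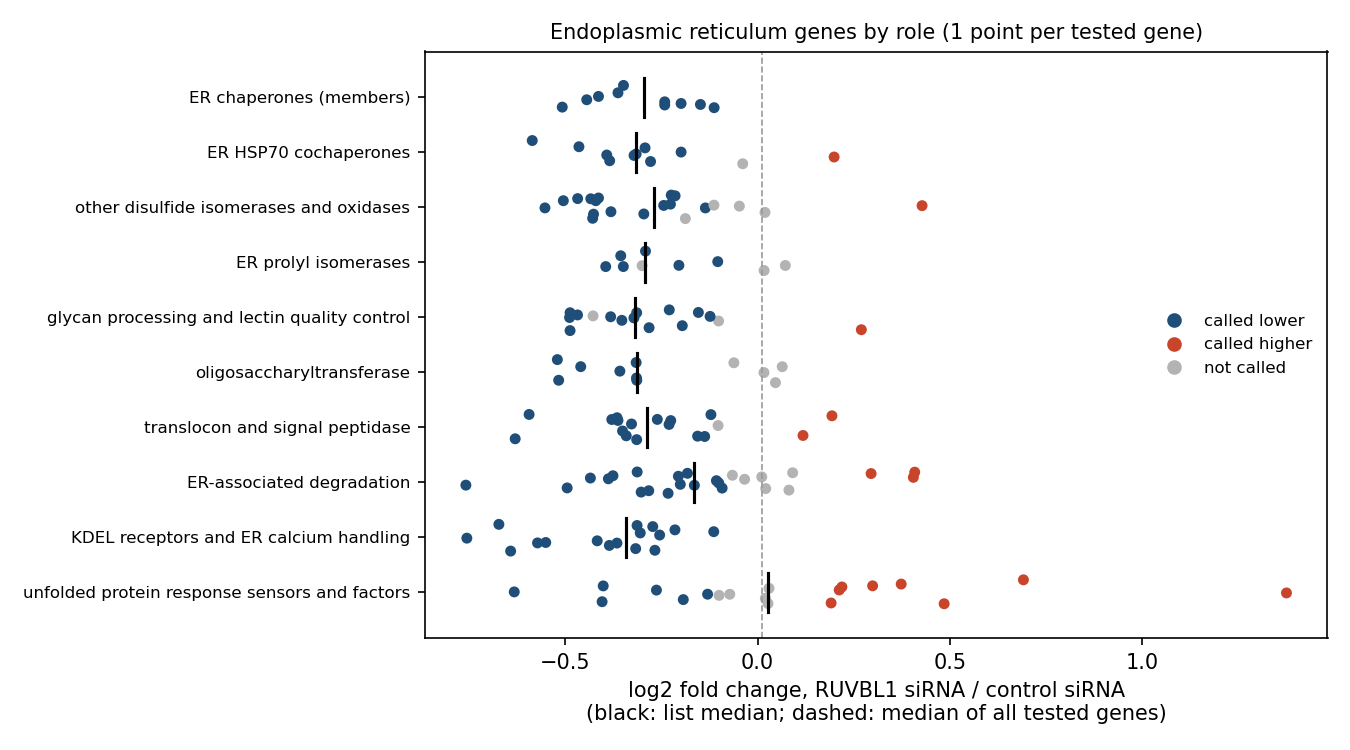
Log2 fold change of RUVBL1 siRNA over control siRNA (horizontal axis) for each tested gene, in rows by role. Points are coloured by the edgeR call at an adjusted p of 0.05, black bars mark list medians and the dashed line marks the median of all tested genes (0.01). The medians lie left of the dashed line, between -0.34 and -0.16, except in the row of sensors and factors, where it is 0.03.

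Degradation genes were mostly lower, while stress signalling genes were divided. Of 25 genes of endoplasmic reticulum-associated degradation, 16 fell and 3 rose (64.0% and 12.0%, median -0.16). Of all tested genes 23.1% fell and 19.1% rose, and of the abundant genes described above 51.7% and 23.5%. With library totals alone 10 of the 25 fell and 6 rose, beside 14.4% and 31.1% of all tested genes. FAF2, VCP and DERL1, which help to pull substrates out, fell to 74.0%, 82.2% and 77.1%. HERPUD1, a strongly stress-induced scaffold of the ligase complex, rose in all 3 libraries, from 3995, 4091 and 4064 normalized counts to 5283, 5406 and 5401, or 132% of the control mean (log2 fold change 0.41, edgeR adjusted p = 1.65e-08). The other genes that rose were the conjugating enzyme gene UBE2J1, to 133%, and HERPUD2, to 123%. The HERPUD2 call was lost without control siRNA replicate 3 or RUVBL1 siRNA replicate 2 (edgeR adjusted p = 0.0559 and 0.0633).

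Of 19 sensors and factors of the unfolded protein response, 8 rose and 6 fell (42.1% and 31.6%). Among all genes 19.1% rose and 23.1% fell. The 8 were NFYB, NFYC, YY1, PPP1R15A, ATF6B, ATF4, DDIT3 and ERN1. With library totals alone, 11 of the 19 rose and 4 fell, beside 31.1% and 14.4% of all genes. ATF6 had 1879, 1637 and 1751 normalized counts in the controls and 1565, 1514 and 1525 after RUVBL1 siRNA, or 87.4% (edgeR adjusted p = 0.00517), a call lost with library totals alone (edgeR adjusted p = 0.151). MBTPS2, the protease that releases ATF6 in the Golgi, fell to 64.5% (edgeR adjusted p = 3.78e-08). EIF2AK3, the PERK gene, had 706, 714 and 698 in the controls and 577, 498 and 527 after RUVBL1 siRNA, or 75.6% (edgeR adjusted p = 0.000149), and EIF2S1, the gene of the factor that PERK phosphorylates, fell to 75.7%. ERN1, the IRE1 gene, went the other way, from 1206, 1098 and 1057 to 1271, 1284 and 1279.9, or 114% (edgeR adjusted p = 0.00486). XBP1, whose mRNA is spliced by IRE1, had 6652, 6464 and 6440.2 in the controls and 6568, 6743 and 6650.3 after RUVBL1 siRNA. The groups overlapped and the gene was not called (log2 fold change 0.03, edgeR adjusted p = 0.240), but it was called higher with library totals alone (0.13, edgeR adjusted p = 0.000297) and in replicates 2 and 3 alone (0.05, edgeR adjusted p = 0.0364). Counts per gene do not tell spliced from unspliced XBP1. ATF4 and DDIT3, which PERK can raise, rose to 140.0% and 259.5% of the control mean (edgeR adjusted p = 3.05e-09 and 3.12e-11). The 10 chaperone genes were lower in the same libraries. PERK activity was not measured, and its part in the rise of ATF4 and DDIT3 was not tested.

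**Figure D4:**
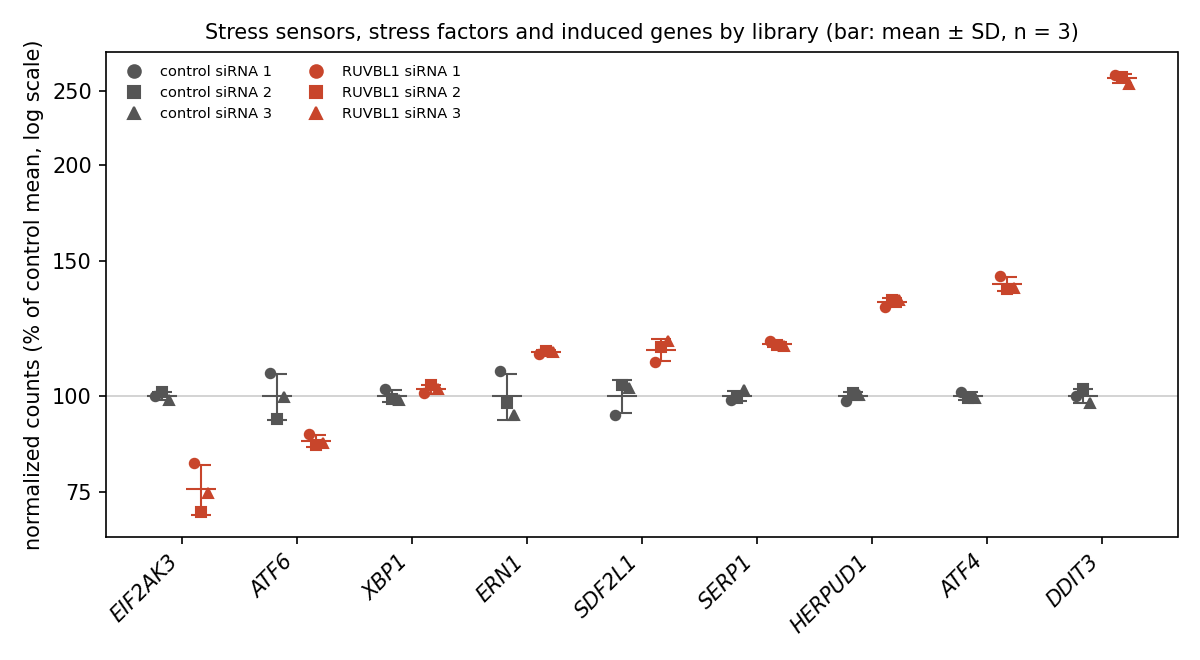
Normalized counts as a percent of the control mean (vertical axis, log scale) for stress sensors, factors and stress-induced genes in 3 control siRNA libraries (grey) and 3 RUVBL1 siRNA libraries (red), with bars for the mean ± SD. EIF2AK3 and ATF6 lie lower after RUVBL1 siRNA, XBP1 overlaps between groups, and SERP1, HERPUD1, ATF4 and DDIT3 lie higher, up to 259.5% for DDIT3.

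Genes outside the list that hold an ERSE before their start were then compared, a choice made after seeing the data. Of the 25 genes with the element, 16 were tested, the 6 listed ones and 10 others. Of the 10 others, 4 fell and 1 rose, with a median log2 fold change of -0.14, beside 26.5% lower and 20.9% higher among 10965 tested genes with a promoter entry. FICD, whose enzyme modifies HSPA5 to store it in an inactive form, fell to 74.3% (log2 fold change -0.43, edgeR adjusted p = 8.34e-05). SERP1, which encodes a stress-associated protein at the translocon, rose to 117%, from 5624, 5662 and 5792 normalized counts to 6705, 6626 and 6606 (log2 fold change 0.22, edgeR adjusted p = 6.85e-07). XBP1 itself holds the element and was not called. ALG12, which is read in the opposite direction from CRELD2, holds its 1 match at the very position of the CRELD2 match, and its log2 fold change was -0.27 with an SE of 0.231 (edgeR adjusted p = 0.441). SERP1 was the only one of the 10 others called higher, and the part of the element in these changes was not tested.

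The nearest profiles to HSPA5 were looked for among tested genes with a mean of at least 100 normalized counts, by the Euclidean distance of centred log2 values over the 6 libraries. The 5 nearest outside the list were SMARCA4 (distance 0.0190), UNG (0.0219), XRCC6 (0.0244), SSR2 (0.0292) and GPRC5C (0.0300). HSP90B1 was as close as these, at 0.0233. The other listed genes were farther, from 0.0750 for CRELD2 to 0.327 for CANX. With 2 groups of 3 libraries the distance mostly reflects the size of the group difference, and SSR2, a subunit beside the translocon, was the only gene of the role lists among the 5.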

How the data were processed

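RNA sequencing of total RNA gave 1 library for each of 6 samples, 3 per group, and the labels set the groups. The authors deposited estimated counts by Ensembl gene, unscaled. The submitters' processing notes name Bowtie 0.12.2 and mouse builds, which conflicts with the human identifiers. The counter, human build, strand setting and filters: not given in the sources used here. Estimated counts were rounded to whole numbers. Symbols matched 51996 of 57820 genes. The test was that of edgeR 4.0.16 under R 4.3.3 (filterByExpr, TMM factors, robust quasi-likelihood test, two-sided, group as the only term), with Benjamini-Hochberg adjustment over 16006 genes and a threshold of 0.05. Normalized counts are scaled to the mean effective library size. The SE is the size of the log2 fold change divided by the square root of F. The fit was also run on simulated counts without a replicate effect. That setting is unlike these libraries, so it does not vouch for the calls here. Libraries of the same number had correlations of their deviations of 0.939, 0.819 and 0.823 and were treated as pairs in a blocked fit, an alternative. Alternatives were DESeq2 1.42.0, limma-voom (limma 3.58.1), other scalings and filters, and fits without single libraries. The members and lists were chosen with earlier results of these data known. Named genes were RUVBL1, the 10 members, their paralogs, up to 4 called genes with the smallest p in each list, the sensors ATF6, XBP1, ERN1 and EIF2AK3 with ATF4 and DDIT3, the KDEL receptors and the 5 nearest profiles to HSPA5. Named outside this rule, after their values were seen, were SDF2L1, GPX8, CLGN, SEC61B, SEC61G, HERPUD2 and UBE2J1, which rose. So were ATF6B, PPP1R15A, NFYB, NFYC and YY1, which also rose, and the ERSE genes FICD, SERP1 and ALG12. The same holds for the markers KLK3, SLC45A3, COL1A1, VWF and PDGFRB and those at 0. GTF2I and PECAM1 had no match by symbol. Promoter sequences are from RefSeq (GRCh38.p14).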

Additional observations from a re-analysis of the deposited data

How the results depend on the processing

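All 10 chaperone genes were called lower under 13 of the 14 alternatives, the exception being library totals alone with 8. In the settings not described above, between 13.9% and 27.6% of all genes were called lower. The median log2 fold change of the 10 was -0.20 with library totals alone, -0.31 with no filter on low counts and -0.28 with at least 50 counts in 3 libraries, and without single libraries it lay between -0.30 and -0.29. The replicate block gave 10 chaperone genes called lower with a median of -0.29, and 124 called genes on the role lists against 121 without it. It changed no call among the named genes that were followed through the alternatives. ATF6B, PPP1R15A, NFYB, NFYC, YY1, ALG12, KLK3, SLC45A3, COL1A1, VWF and PDGFRB were not followed there. Without single libraries, between 116 and 121 genes of the role lists and between 5741 and 6357 of all genes were called. Followed genes that lost a call with library totals alone, besides CALR, PDIA3 and ATF6, were HSPA13 and CRELD1. CRELD1 also lost its call without control siRNA replicate 2 (edgeR adjusted p = 0.0561). No called value of the followed genes changed sign. Counting error for the 10 was at most 0.0253 on the log2 scale.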

Other observations

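Other promoter elements of the stress pathways were searched in the same 250 bases, a choice made after seeing the data, and the values are given without explanation. The element TGATGNAA, the core of the site that ATF4 shares with C/EBP factors, lay before 3.89% of genes and before none of the 9 listed chaperone genes with a promoter entry. Of 252 other tested genes with it, 73 rose and 47 fell after RUVBL1 siRNA (28.97% and 18.7%), with a median log2 fold change of 0.08, where 20.9% rose and 26.5% fell among all 10965 tested genes with an entry. The element TGACGTGG, which XBP1 and ATF6 can bind, lay before 0.780% of genes and before 1 listed gene, HYOU1, where it overlaps an ERSE-II match. Of 104 other tested genes with it, 17 rose and 35 fell (16.3% and 33.7%), with a median of -0.04. ERSE-II was held by 13 other tested genes, of which 3 rose and 4 fell.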
